A study of Homo sapiens and Mus musculus with 12 samples.

Results

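A set of 9 genes that mark neural crest and mesenchyme was followed through RNA-seq counts of 12 cortical organoid libraries. The 9 are the transcription factor genes TFAP2A, FOXD3, SNAI2, TWIST1 and PRRX1, the receptor genes PDGFRA and PDGFRB, and the matrix proteoglycan genes LUM and DCN. They are a list of symbols; all 9 were found among the 60675 gene identifiers of the human count table, and all 9 orthologs, matched by gene description, among the 47729 of the mouse table.

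Cortical organoids are aggregates of stem cells that are steered toward embryonic forebrain tissue. The human organoids grew from H9, an established embryonic stem cell line kept on mouse embryonic fibroblast feeders before differentiation, and carried either the WT genotype (line code H9_WT_E2del19) or a CRISPR/Cas9 NOTCH2NL knockout (KO, line code H9_KO_E5del42). They were harvested at week 4, on day 28, as pools of 5 to 10 organoids. The mouse organoids grew from stable lines of 46C embryonic stem cells holding an empty vector (EV) or NOTCH2NL-Sh_T197I cDNA (N2NL), and were harvested on day 6 as pools of 16 organoids. Each group had 3 libraries, and within a species the group and the line code divide the libraries in the same way, so a difference between lines and a difference between genotypes or vectors cannot be told apart. The sources used here explain neither the human line codes nor the promoter of the mouse vectors. No label ties the pools to separate cultures, so the p-values cover only the spread between these pools, which may be technical.

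Neural crest cells arise at the border between the neural plate and the surface ectoderm, pass through an epithelial to mesenchymal transition and migrate. TFAP2A and FOXD3 act early in their specification, and SNAI2 and TWIST1 drive the transition. Crest cells of the head give much of the facial mesenchyme and, around the forebrain, pericytes and part of the meninges, cells that carry the platelet-derived growth factor (PDGF) receptors and deposit collagens and small leucine-rich proteoglycans. Several of these genes also mark other cells of the nervous system: PDGFRA marks oligodendrocyte precursors, and TFAP2A, TFAP2B, PAX3 and PAX7 are used by cells of the dorsal neural tube or hindbrain.

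The promoters of the receptor genes are shown because PDGFRA and PDGFRB are the 2 members whose KO libraries all lay above all WT libraries. Each window holds 220 bases, from 250 to 31 before a start site, on the gene's own strand, and overlaps no exon annotated on that strand. The sequences are from RefSeq on GRCh38.p14. Capitals mark an E-box (CANNTG, the letters bound by SNAI2, TWIST1 and other factors) and a CCAAT box, both searched on both strands; CAGGTG and the letters GCCNNNGGC of TFAP2 factors were searched too, and neither was found in these windows.
PDGFRA, second start site, chr4:54233710-54233929, plus strand: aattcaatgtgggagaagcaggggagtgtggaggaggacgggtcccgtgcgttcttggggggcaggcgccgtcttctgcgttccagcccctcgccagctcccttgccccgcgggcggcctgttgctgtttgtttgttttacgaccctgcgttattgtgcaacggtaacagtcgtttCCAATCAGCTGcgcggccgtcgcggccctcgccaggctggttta
PDGFRB, chr5:150155876-150156095, minus strand: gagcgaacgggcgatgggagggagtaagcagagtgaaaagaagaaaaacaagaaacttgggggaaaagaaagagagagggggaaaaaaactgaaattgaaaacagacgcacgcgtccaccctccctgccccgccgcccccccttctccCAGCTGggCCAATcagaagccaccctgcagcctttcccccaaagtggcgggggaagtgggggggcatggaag
Both of these windows hold 1 E-box with the letters CAGCTG and 1 CCAAT box close to it. The window of the other PDGFRA start site (chr4:54229043-54229262), not printed because it overlaps an exon, holds 2 E-boxes with other letters and no CCAAT box. In PDGFRA the CCAAT box begins 74 bases before the start and the E-box follows at 69, and in PDGFRB the E-box begins 102 bases before the start and the CCAAT box 94. Of 35116 promoter windows of this length, 57.9% held an E-box, 29.8% a CCAAT box, 16.0% CAGGTG and 17.4% the TFAP2 letters. The shares with CAGCTG or with such a close pair were not counted, so the likeness of the printed windows was not tested. In all, 5 of the 9 members had an entry in this table. Of the others with an entry, FOXD3 had 1 E-box (CACGTG) and no CCAAT box. PRRX1 had 2 CCAAT boxes and no E-box, and TFAP2A had neither.

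Total counts were 15381409 to 16382938 in the human libraries and 16781742 to 20960391 in the mouse libraries. Levels are CPM, the counts scaled to a common library size with TMM factors. A count of 0, with a floor of 3 counts, allows up to 0.183 to 0.199 CPM in human and 0.142 to 0.178 in mouse, for counting error only. NOTCH2NL had 4, 5 and 3 counts in WT and 0 in each KO library, and in the authors' deposited table for mouse its normalized values were 0 in each EV library and 801, 709 and 740 in N2NL. Cortical progenitor and neuron genes were well above the floor in both human groups, with SOX2, a factor of neural progenitors, at 261 ± 27 CPM in WT and 237 ± 18.8 in KO (SD, n = 3). On the first principal component (48.8% of the variance) the human groups parted, whereas on the second (22.1%) WT 1 stood at 35.00, apart from WT 2 (-27.97) and WT 3 (-11.24). Many values below differ between WT 1 and the other WT pools, and for some of these genes results are also given without that library.

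In human, 6 of the 9 members had counts high enough to be tested, and 2 of these 6 passed a Benjamini-Hochberg adjusted p of 0.05 in edgeR's quasi-likelihood test, where 5.5% of all 16956 tested genes did. PDGFRB rose and LUM fell, the latter a gene that passed the filter on low counts only through WT, where it was high. By the same criterion 2.31% of tested genes rose and 3.19% fell. DESeq2 called 4 of 7 members, PDGFRA and PDGFRB higher and LUM and FOXD3 lower, where it called 7.12% of all genes it tested (3.14% higher and 3.98% lower). The groups did not overlap for 3 of the 6 tested members, higher in KO for PDGFRA and PDGFRB and lower for LUM, where 28.8% of tested genes did not overlap (14.1% higher and 14.8% lower). The median log2 fold change of the 6 tested members was -0.88, against -0.00 over all tested genes. Since these are bulk pools, fewer cells of a type and less RNA per cell cannot be told apart.

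**Figure D1:**
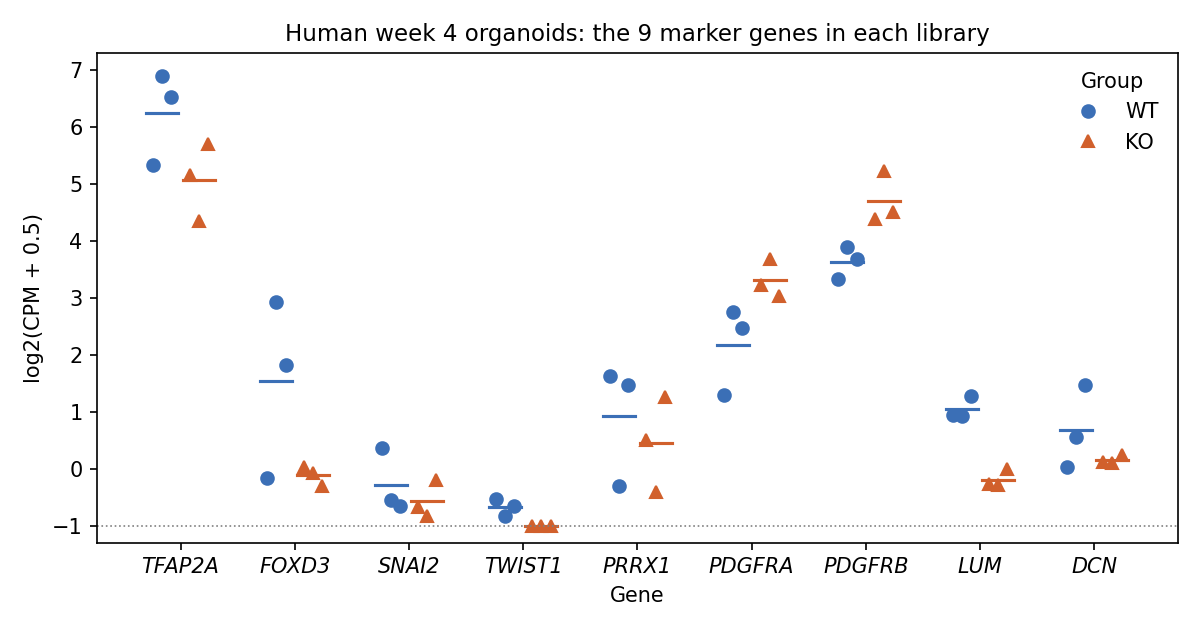
Level of each of the 9 genes in each human library, as log2(CPM + 0.5), with circles for the 3 WT and triangles for the 3 KO pools, in the order of replicates 1, 2 and 3 from left to right, and bars for group means. The dotted line is a level of 0; PDGFRA and PDGFRB lie higher in all KO pools, LUM lies lower, and FOXD3 is spread over an 18.3-fold range within WT.

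PDGFRB is the receptor by which pericytes and other mural cells answer the ligands PDGF-B and PDGF-D, and lies at chr5:150113837-150155872 on the minus strand (GRCh38). It had 9.59, 14.4 and 12.3 CPM in WT and 20.3, 36.9 and 22.3 in KO. All KO pools were above all WT pools, KO 2 was the highest and WT 1 the lowest. The mean rose from 12.1 ± 2.4 to 26.5 ± 9.09 CPM, a log2 fold change of 1.13 ± 0.25 (SE; edgeR adjusted p = 0.0402). The call was lost in each of the 6 fits that left out 1 library, with adjusted p of 0.0537 to 0.155 and log2 fold changes of 0.82 to 1.31 (0.99 without WT 1).

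PDGFRA, the receptor for PDGF-A and PDGF-C on mesenchyme and oligodendrocyte precursors, lies at chr4:54229097-54298247 on the plus strand. It had 1.94, 6.22 and 5.04 CPM in WT and 8.84, 12.4 and 7.65 in KO. As for PDGFRB, the groups did not overlap, with WT 1 lowest and KO 2 highest. The mean was 4.40 ± 2.21 in WT and 9.63 ± 2.47 in KO, a log2 fold change of 1.12 ± 0.38. This did not pass in edgeR (adjusted p = 0.132) and passed in DESeq2 (0.0225). Without WT 1 the log2 fold change was 0.77 (edgeR adjusted p = 0.0753). The authors' deposited table gives PDGFRA a log2 fold change of 0.76 (adjusted p = 0.023) and PDGFRB 0.92 (0.000137). DESeq2 here gave nearly the same adjusted p for both (0.0225 and 0.000132) with larger log2 fold changes, 1.13 and 1.14. The size of the authors' fold changes is therefore not compared with the values here.

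Of the 4 PDGF ligand genes, all tested, 1 rose and none fell. PDGFD, whose product binds PDGFRB, had 4.67, 5.30 and 4.98 CPM in WT and 9.95, 11.9 and 10.4 in KO. The pools of a group lay close together and the groups were well apart. The rise was 1.11 ± 0.17 on the log2 scale (edgeR adjusted p = 0.00662), and it was called in all 6 fits that left out 1 library. PDGFC, the most abundant ligand gene, stood at 17.8 ± 0.714 CPM in WT and 21.3 ± 4.81 in KO (0.25 ± 0.16, adjusted p = 0.389). PDGFA (-0.23 ± 0.27) and PDGFB (0.10 ± 0.47) did not pass either. The 4 ligand genes had a median log2 fold change of 0.17.

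Mural and oligodendrocyte precursor markers were read beside the receptors. Of 11 mural genes, 7 were tested, 1 rose and none fell, with a median of 0.02. RGS5, a regulator of G-protein signalling found in pericytes, had 33, 66 and 28 counts in WT and 173, 170 and 100 in KO, so every KO pool was above every WT pool. It rose by 1.80 ± 0.34 on the log2 scale (adjusted p = 0.019), and the call was lost without WT 3, KO 1 or KO 2. This symbol belongs to 2 identifiers, and the one with the higher counts was used. CSPG4, which codes for the NG2 proteoglycan of pericytes and oligodendrocyte precursors, had 17, 24 and 22 counts in WT against 7, 9 and 9 in KO, the opposite direction (-1.34 ± 0.37, adjusted p = 0.065). KCNJ8, a potassium channel gene of pericytes, had 5, 7 and 17 counts in WT and 20, 31 and 26 in KO (1.37 ± 0.47, adjusted p = 0.118). CSPG4 passed the filter on low counts through WT alone and KCNJ8 through KO alone. Among the 7 tested mural genes, RGS5 and KCNJ8 were higher in every KO pool than in any WT pool, and CSPG4 was lower. Among all tested genes 14.1% lay higher and 14.8% lower in this way. MYH11 and DES, both too low to be tested, were also higher in every KO pool, but at counts near 0. DES had 1, 2 and 1 counts in WT and 5, 2 and 4 in KO. The contractile genes TAGLN (0.02 ± 0.20) and ACTA2 (0.43 ± 0.36) and the adhesion gene MCAM (-0.38 ± 0.42) did not pass. MYH11, a marker of smooth muscle, had 0 counts in WT and at most 2 in a KO pool, below the level that 0 counts in WT allow. The summed level of the mural genes ranged over 61 to 92 CPM in WT and 51 to 95.4 in KO, which overlap.

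None of the 4 tested of 6 oligodendrocyte precursor genes passed. OLIG2 stood at 1.86 ± 0.519 CPM in WT and 1.91 ± 0.153 in KO. OLIG1 (1.22 ± 0.50, adjusted p = 0.19) had 11, 45 and 23 counts in WT and 41, 45 and 100 in KO. NKX2-2 was at 0 in all 6 libraries and SOX10 had 0, 1 and 0 counts in WT and 0, 3 and 0 in KO. The summed level was 4.73 to 8.23 CPM in WT and 6.37 to 10.5 in KO. None of the 3 tested of 8 endothelium and blood genes passed. KDR, the vascular endothelial growth factor receptor that lies 780012 bases from PDGFRA, had 7, 37 and 15 counts in WT and 40, 67 and 36 in KO (1.27 ± 0.51, adjusted p = 0.178). The blood gene PTPRC had 10, 8 and 3 counts in WT and 11, 19 and 15 in KO (1.07 ± 0.49). Both passed the filter on low counts only with the KO pools, where they were high, so the median of the 3, 1.07, is not read as a rise. CLDN5, the other, had 0.16 ± 0.34. Endothelial PECAM1, CDH5, ERG and VWF had at most 4 counts in any library. The part of these cell types in the receptor values was not tested.

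LUM codes for lumican, a small leucine-rich proteoglycan that binds collagen fibrils, and lies at chr12:91102629-91111831 on the minus strand. It had 22, 23 and 29 counts in WT and 5, 5 and 8 in KO, or 1.43, 1.40 and 1.92 against 0.325, 0.318 and 0.489 CPM. The pools of each group lay close together, and every KO pool was below every WT pool. LUM fell by 2.04 ± 0.40 on the log2 scale, from 1.58 ± 0.295 to 0.377 ± 0.0971 CPM (edgeR adjusted p = 0.0181; DESeq2 0.018). The gene passed the filter on low counts through the WT group alone, so it could be tested only because it was high there. The call was lost without WT 3 (adjusted p = 0.0974), KO 1 (0.0904) or KO 2 (0.0663). The authors' deposited table gives -0.83 (adjusted p = 0.0166), where DESeq2 here gave -2.06.

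DCN, which codes for decorin, a related proteoglycan that binds collagen and transforming growth factor beta, lies 28653 bases from LUM on the same strand (chr12:91140484-91183123). It had 8, 16 and 34 counts in WT and 9, 9 and 11 in KO. The WT pools covered a 4.35-fold range in CPM and the KO pools lay within it, near its low end. The means were 1.25 ± 0.901 and 0.610 ± 0.0549 CPM, and the difference did not pass (-1.02 ± 0.53, adjusted p = 0.289). Without WT 3 the log2 fold change was -0.29. The other 2 proteoglycan genes next to LUM on chromosome 12 stood at or near 0: EPYC had no count and KERA had 1 count in 1 KO pool.

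Of 8 other small leucine-rich proteoglycan genes, 1 was tested, and it did not pass. This was BGN, the biglycan gene, with 1, 15 and 11 counts in WT and 6, 6 and 17 in KO (0.08 ± 0.72). OGN, EPYC, ASPN and OMD had no count in any library. The summed level of the 8 genes was 0.648 to 1.66 CPM in WT and 0.520 to 1.47 in KO.

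Among 16 mesenchyme and fibroblast genes, 11 were tested, 2 fell and none rose, with a median of -0.22. Both that fell code for chains of collagen VI. COL6A1 had 182, 266 and 246 CPM in WT and 140.2, 150.2 and 144 in KO, a fall of 0.68 ± 0.13 on the log2 scale (adjusted p = 0.0195). COL6A2 had 17.6, 27.8 and 26.3 CPM in WT and 12, 15.3 and 12.1 in KO, a fall of 0.87 ± 0.19 (adjusted p = 0.028). Neither gene's groups overlapped, although WT 1 lay nearest to KO for both. With each library left out in turn, COL6A1 was called in 1 fit of 6, the one without WT 1, and COL6A2 in 2. The fibrillar collagen gene COL1A2 (-1.14 ± 0.42, adjusted p = 0.179) did not pass. COL3A1, named after its values were seen, had 61, 7 and 14 counts in WT and 3, 2 and 7 in KO. It was left out of the main edgeR test by the filter on low counts, and DESeq2 called it lower (-2.81, adjusted p = 0.0206), although the groups overlapped and WT 1 held most of the WT counts. THY1 (-0.22 ± 0.16), COL5A1 (-0.92 ± 0.44) and FBN1 (0.37 ± 0.25) did not pass. The summed level of the 16 genes was 379 to 467 CPM in WT and 270.5 to 331 in KO, with COL6A1 the largest part.

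**Figure D2:**
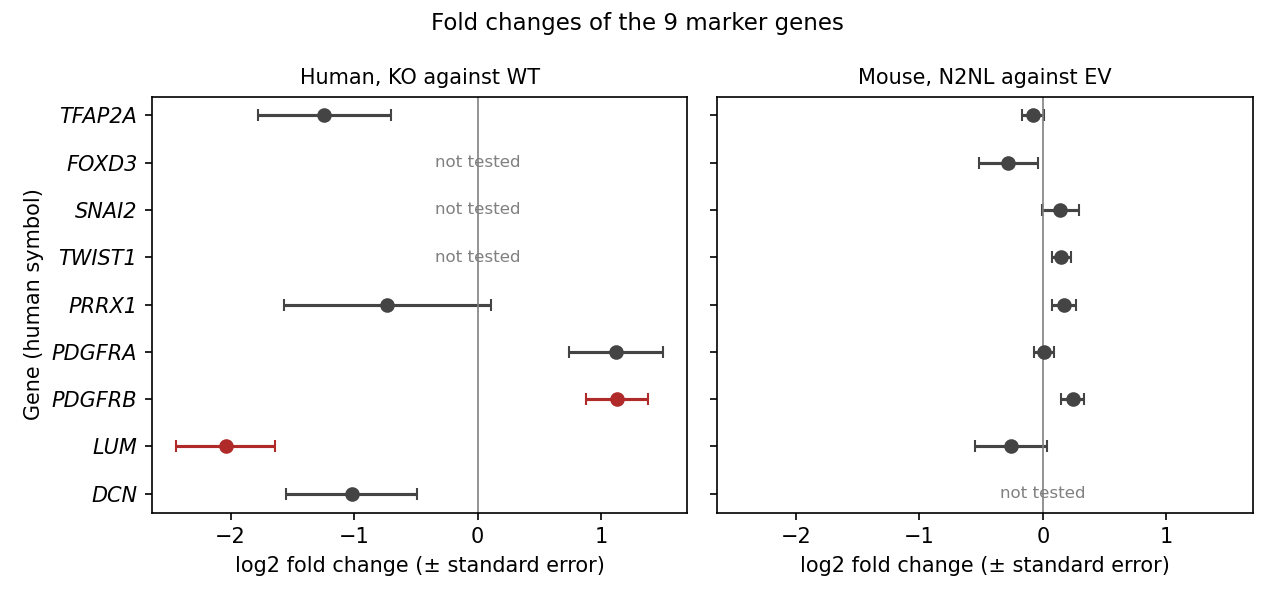
Log2 fold change of each tested member with its standard error, KO against WT in human (left) and N2NL against EV in mouse (right), red where edgeR's adjusted p was under 0.05. In human PDGFRB (1.13) and LUM (-2.04) are red and 3 genes were not tested; all mouse values lie between -0.28 and 0.24.

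TFAP2A was the most abundant of the 9 members in human per length of transcript, at 10.1 ± 4.86 CPM per kilobase of exon in WT and 4.28 ± 1.89 in KO. It codes for AP-2 alpha, an early regulator of neural crest and surface ectoderm, and lies at chr6:10393186-10419659 on the minus strand. It had 39.9, 119 and 91.2 CPM in WT and 35.1, 20.0 and 51.3 in KO. WT 1 lay among the KO pools, and KO 2 was the lowest of all. The log2 fold change was -1.24 ± 0.54 (adjusted p = 0.259), and with each library left out in turn it never passed (adjusted p 0.150 to 0.483). Without WT 1 it was -1.57.

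FOXD3, a forkhead repressor needed for crest specification, lies at chr1:63323041-63325126 on the plus strand. It had 6, 117 and 46 counts in WT and 8, 7 and 5 in KO. WT 2 and WT 3 were far above the KO pools, while WT 1, at 0.389 CPM, lay within their range of 0.306 to 0.520 CPM. It was left out of the main test because too few libraries held enough counts. DESeq2 gave -3.05 (adjusted p = 0.00141), edgeR with no filter -3.04 (0.0709) and edgeR without WT 1 -3.57 (0.00086), whereas edgeR without KO 1, KO 2 or KO 3 gave adjusted p of 0.269 to 0.320. The authors' deposited table gives -0.90 (adjusted p = 0.00408), smaller in size than the DESeq2 value here, as for the PDGF receptor genes. In the edgeR fits without 1 library, FOXD3 passed the filter on low counts only through WT 2 and WT 3, where it was high. In the fits run here the log2 fold change ran from -2.85 to -3.57. The edgeR call depends on leaving out WT 1, the WT pool that lay within the KO range.

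FOXD3-AS1 (chr1:63320884-63324441) overlaps FOXD3 on the opposite strand, so reads in the shared stretch are uncertain, since no source used here states how the counting treated strand. It is named here after its values were seen. It had 38, 226 and 115 counts in WT and 7, 7 and 12 in KO. Unlike FOXD3, its WT 1 pool was above all KO pools. It fell by 3.85 ± 0.70 on the log2 scale (edgeR adjusted p = 0.0284), a call lost without WT 3, KO 1, KO 2 or KO 3. Like LUM, it passed the filter on low counts through the WT group, so it could be tested only because it was high there. The protein-coding neighbours ALG6 (0.08 ± 0.13) and ATG4C (-0.05 ± 0.23) did not pass.

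SNAI2 and TWIST1 stood at the edge of detection. SNAI2, the Slug repressor of E-cadherin, lies at chr8:48917604-48921740 and had 12, 3 and 2 counts in WT and 2, 1 and 6 in KO, with overlapping groups. TWIST1, a helix-loop-helix factor of cranial mesenchyme, lies at chr7:19020991-19117672 and had 3, 1 and 2 counts in WT and 0 in each KO pool. A level of 0 allows up to 0.184 to 0.195 CPM in the KO pools and the WT pools reached at most 0.194 CPM, so no difference was detectable at this depth. PRRX1, a homeobox factor of limb and head mesenchyme at chr1:170662728-170739419, had 40, 5 and 34 counts in WT and 14, 4 and 31 in KO. The second pool of each group was its lowest, and the groups overlapped (-0.73 ± 0.84, adjusted p = 0.657). Without 1 library the log2 fold change ran from -0.27 (without KO 2) to -1.54 (without KO 3).

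The 16 other neural crest genes gave 13 tested, of which 1 rose and none fell, with a median of 0.07. MSX1, a homeobox factor of the neural plate border, had 9.59, 18.3 and 19.5 CPM in WT and 33.9, 41.6 and 30.8 in KO, without overlap. It rose by 1.17 ± 0.26 on the log2 scale (adjusted p = 0.0467), a call that, with each library left out in turn, held in 1 fit of 6, the one without WT 1. SOX9, a regulator of crest and of neural stem cells, was at 96.3 ± 4.90 CPM in WT and 101 ± 7.95 in KO (0.07 ± 0.09, adjusted p = 0.695). TFAP2B, the paralog of TFAP2A, had 58.3, 197 and 135 CPM in WT and 49.3, 28.7 and 76.7 in KO (-1.33 ± 0.58, adjusted p = 0.259). Its order of libraries, with WT 2 highest and KO 2 lowest, was that of TFAP2A. NGFR, the low-affinity neurotrophin receptor used to sort crest cells, had 67.1, 136 and 115 CPM in WT and 32.4, 17.2 and 49.6 in KO. Those groups did not overlap, and the difference did not pass in edgeR (-1.68 ± 0.47, adjusted p = 0.124) while it passed in DESeq2 (0.02). Among the 13 tested genes of this list, NGFR was the only gene whose KO pools all lay below the WT pools. For MSX1, MSX2, MITF and CDH6 they all lay above. Of all tested genes 14.1% lay above and 14.8% below. ERBB3, too low for the edgeR test, also lay above (3, 3 and 3 counts against 8, 12 and 4). MSX2, a homeobox factor related to MSX1, stood at 9.37 ± 3.59 and 19.2 ± 1.76 CPM (1.03 ± 0.27, adjusted p = 0.06; DESeq2 0.00174). MITF, the regulator of pigment cells, stood at 7.74 ± 3.46 and 16 ± 4.26 CPM (1.05 ± 0.35, adjusted p = 0.135; DESeq2 0.0121), and CDH6 passed in neither test (0.69 ± 0.27). These genes, like MSX1, were lowest in WT 1, except ERBB3. SOX10, the defining marker of migrating crest and glia, was at or near 0 in all libraries.

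**Figure D3:**
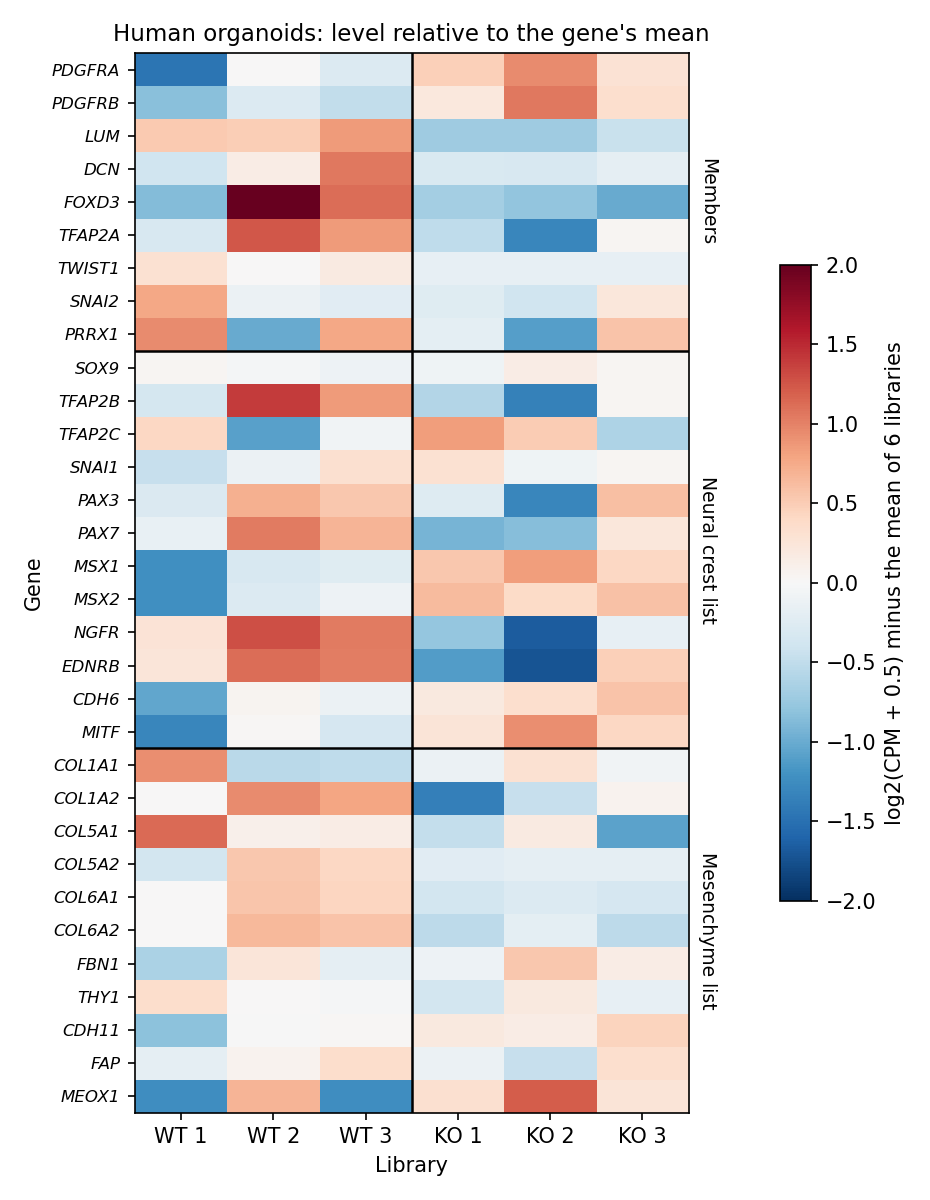
Level of 32 genes in the 6 human libraries, each shown as log2(CPM + 0.5) minus the gene's mean over the libraries (red above, blue below, colours end at 2 and -2): the 9 members, 12 of the 13 tested neural crest genes and the 11 tested mesenchyme genes. PDGFRA, PDGFRB, MSX1 and MSX2 are lowest in WT 1 and above their mean in all KO pools, whereas TFAP2A, TFAP2B, NGFR and FOXD3 are highest in WT 2.

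Of the 9 epithelial to mesenchymal transition genes, 6 were tested and none passed, with a median of -0.05. VIM, the vimentin gene, was at 2938 ± 192 CPM in WT and 2389 ± 261 in KO (-0.30 ± 0.10, adjusted p = 0.121). The N-cadherin gene CDH2 (0.08 ± 0.09) and the repressor genes ZEB1 (-0.17 ± 0.13) and ZEB2 (0.20 ± 0.12) did not pass. CDH1, the E-cadherin gene, had 3 to 14 counts in every library. One of 6 meninges genes was tested, CRABP2, which stood at 101 ± 23.7 and 104 ± 6.77 CPM (0.04 ± 0.16), while FOXC1, FOXC2, FOXD1, TBX18 and ALDH1A2 had at most 14 counts in any library. None of 4 tested of 7 surface ectoderm genes passed, with KRT8 at 11.1 ± 5.89 and 14 ± 4.13 CPM. None of the 6 neural progenitor genes passed, and 1 of 5 neuron genes, TUBB3, fell (-0.52 ± 0.12, adjusted p = 0.0316), a call that held without WT 1 and was lost without any of the other libraries. ELAVL4, a neuronal RNA-binding protein gene of the same list, was higher in every KO pool, at 66.8 ± 2.86 and 94.8 ± 19.9 CPM (0.51 ± 0.14, edgeR adjusted p = 0.0621; DESeq2 0.0156). Over all 12 lists, each gene taken once, 63 genes were tested, 3 rose and 3 fell in edgeR, where 5.5% of all tested genes were called. DESeq2 tested 72 and called 6 higher and 5 lower, where it called 7.12% of all.

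The members differed in how far they varied between pools of the same group. As the SD of log2(CPM + 0.5) over the 3 WT pools, FOXD3 had 1.57, PRRX1 1.08, TFAP2A 0.82, PDGFRA 0.77 and DCN 0.73, where the median tested gene had 0.17. A larger SD was found in 0.0177% of tested genes for FOXD3, in 0.23% for PRRX1, in 1.1% for TFAP2A, in 1.46% for PDGFRA and in 1.87% for DCN. LUM (0.20) and PDGFRB (0.28), the called members, lay nearer to the median. In KO, PRRX1 (0.83), TFAP2A (0.67) and PDGFRB (0.46) were above the median of 0.15, with a larger SD in 7.89% of tested genes for PDGFRB, while FOXD3 was at 0.17. The pools were not ordered alike for all members: WT 1 was lowest of the WT pools for PDGFRA, PDGFRB, DCN, FOXD3 and TFAP2A, and highest for PRRX1, SNAI2 and TWIST1. Among the 8 collagen genes of the mesenchyme list, WT 1 was the highest WT pool for 4 (COL1A1, COL3A1, COL5A1 and COL6A3) and the lowest for the other 4 (COL1A2, COL5A2, COL6A1 and COL6A2). COL5A1 had 65.2, 31.6 and 32.6 CPM in WT 1, WT 2 and WT 3, and COL1A2 had 14.6, 28.5 and 25.5.

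Per kilobase of exon, which allows genes to be ranked within a group, the order in WT was TFAP2A, then FOXD3 (1.69 ± 1.63) and PDGFRB (1.69 ± 0.336), LUM (0.526 ± 0.098), PDGFRA (0.452 ± 0.227), PRRX1 (0.208 ± 0.150), SNAI2 (0.107 ± 0.106), DCN (0.0973 ± 0.0701) and TWIST1 (0.0636 ± 0.0329). Among neighbours in this order, TFAP2A was separated from FOXD3 and PDGFRB from LUM, in that mean ± SD did not overlap, and the other neighbours were not separated. In KO the order was TFAP2A (4.28 ± 1.89), PDGFRB (3.71 ± 1.27), PDGFRA (0.989 ± 0.254), FOXD3 (0.203 ± 0.0521), LUM (0.125 ± 0.0323), PRRX1 (0.124 ± 0.100), SNAI2 (0.0551 ± 0.0470) and DCN (0.0475 ± 0.00428), with TWIST1 at 0. There PDGFRB was separated from PDGFRA and PDGFRA from FOXD3, while TFAP2A and PDGFRB overlapped, as did the other neighbours; TWIST1, at 0, was not placed below DCN, since the level that 0 counts allow lies above DCN.

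The tested genes whose pattern over the 6 human libraries was most like that of each called member were found by the root-mean-square difference of row-centred log2 CPM, over 16955 genes, as a description. For PDGFRB they were SYTL3 (0.09), SYDE2 (0.13), RP11-3D4.2 (0.14), GALNT10 (0.15) and SLC7A6 (0.15). SLC7A6, an amino acid transporter gene, had 61.7, 102 and 76.2 CPM in WT and 161, 248 and 184 in KO, with KO 2 highest and WT 1 lowest as for PDGFRB. PDGFRA ranked 313th, at 0.36. For LUM they were ALDOC (0.19), LINC00957 (0.22), CMB9-22P13.1 (0.22), CCDC33 (0.23) and TNNI1 (0.23). ALDOC, the aldolase C gene, had 36.2, 28.9 and 40.2 CPM in WT and 10.7, 8.52 and 9.79 in KO. DCN, the neighbour of LUM in the genome, ranked 1252nd, at 0.69. Of the genes beside PDGFRB, HMGXB3 had -0.18 ± 0.09 (adjusted p = 0.266) and SLC6A7 0.42 ± 0.35 (adjusted p = 0.508). The nearer CSF1R, which ends 465 bases away and had at most 7 counts, and CDX1, with no count, could not be tested.

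In mouse, 8 of the 9 members were tested and none passed in edgeR, where 0.012% of 16682 tested genes passed, and none of the 5 given an adjusted p passed in DESeq2, where 0.344% did (0.287% higher and 0.0574% lower). Their median log2 fold change was 0.08, against -0.01 over all tested genes. The groups did not overlap for 1 of the 8 tested, Pdgfrb, and for Dcn, which was too low to be tested, both higher in N2NL. Among all tested genes 12.7% did not overlap (7.39% higher and 5.31% lower). The first principal component (29.3% of the variance) did not part the groups. No gene length was used for mouse, so levels are compared only within a gene.

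**Figure D4:**
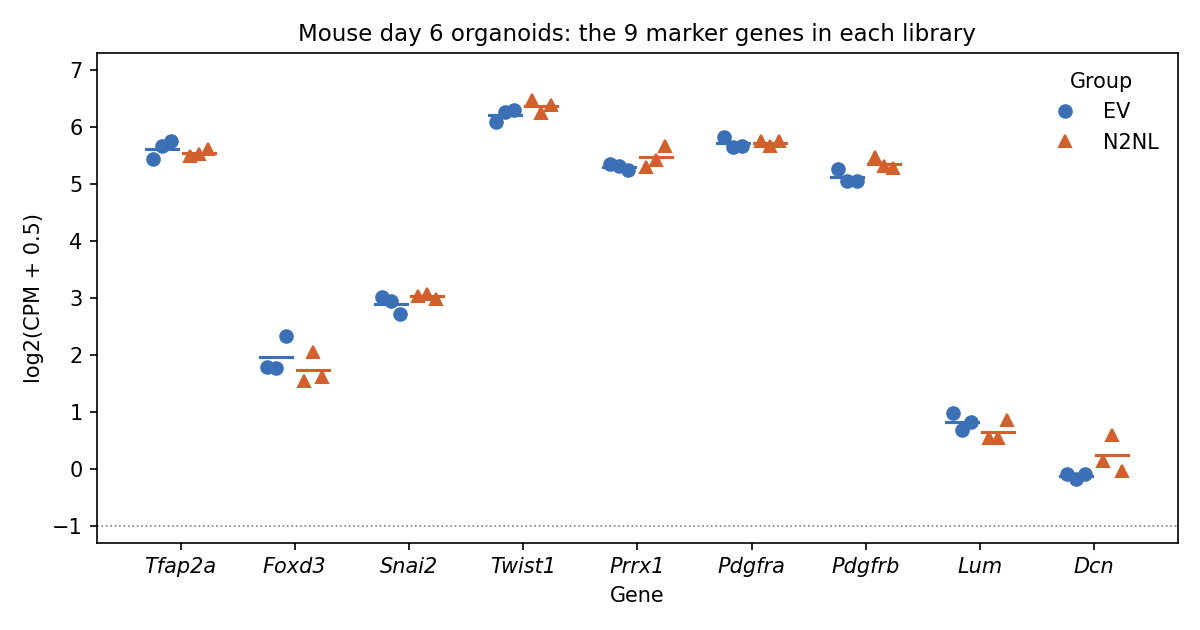
Level of each ortholog in each mouse library, as log2(CPM + 0.5), with circles for the 3 EV and triangles for the 3 N2NL pools, in the order of replicates 1, 2 and 3 from left to right, and bars for group means. The pools of a gene lie close together, and Pdgfrb and Dcn are the genes whose N2NL pools all lie above the EV pools.

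Pdgfrb had 37.8, 32.5 and 32.6 CPM in EV and 43.9, 39.5 and 38.3 in N2NL. The lowest N2NL pool was slightly above the highest EV pool. The means were 34.3 ± 3.00 and 40.6 ± 2.92 CPM, and the log2 fold change of 0.24 ± 0.09 failed the threshold (edgeR adjusted p = 0.599 over all tested genes). Pdgfra had 56.1, 49.6 and 50.3 CPM in EV and 53.2, 50.0 and 53.7 in N2NL, with overlapping groups (0.01 ± 0.08, adjusted p = 0.99). The 4 ligand genes were all tested and none passed, with a median of 0.10; Pdgfa, the most abundant, was at 31.2 ± 2.03 CPM in EV and 35.0 ± 1.52 in N2NL (0.17 ± 0.09), and Pdgfd at 3.33 ± 0.386 and 3.48 ± 0.576 (0.06 ± 0.20).

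The mesenchymal transcription factor genes were well expressed in the day 6 mouse organoids. Twist1 had 67.6, 76.2 and 77.8 CPM in EV and 88.0, 75.1 and 83.5 in N2NL (0.15 ± 0.08, adjusted p = 0.738). Prrx1 had 40.1, 39.4 and 37.6 CPM in EV and 39, 42.3 and 50.5 in N2NL (0.17 ± 0.10, adjusted p = 0.754). Both had overlapping groups. Snai2 was at 6.95 ± 0.797 and 7.64 ± 0.286 CPM (0.14 ± 0.15), also overlapping. Species, stage and organoid protocol differ, so these levels stand beside the human ones with no comparison.

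Tfap2a had 42.7, 50.1 and 53.8 CPM in EV and 44.4, 45.3 and 48.6 in N2NL (-0.08 ± 0.09, adjusted p = 0.892). Foxd3 had 2.93, 2.89 and 4.50 CPM in EV and 2.39, 3.63 and 2.54 in N2NL (-0.28 ± 0.24, adjusted p = 0.867). Neither gene's groups were separated. The proteoglycan genes had low counts, with Lum at 27, 23 and 26 counts in EV and 19, 16 and 22 in N2NL (-0.26 ± 0.29, adjusted p = 0.893) and Dcn at 8, 8 and 9 against 12, 17 and 8 counts, too few to be tested. N2NL 3 had fewer Dcn reads than EV 3 but a smaller library, so that in CPM its 0.473 was above the EV pools.

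Of the genes of the 12 lists, 95 of 97 were matched in mouse and 83 were tested, and none passed in edgeR. DESeq2 gave an adjusted p to 45 of the list genes and called 2 of these, where it called 0.344% of all genes it tested. They were the crest and glial regulator gene Sox9, higher (60.4 ± 5.61 to 80.5 ± 4.58 CPM, adjusted p = 0.0231), and the neuronal microtubule regulator gene Stmn2, lower (115 ± 14.6 to 86.7 ± 2.84 CPM, adjusted p = 0.0286). All 16 neural crest genes were tested, with a median of 0.06 and summed levels of 640.3 to 734 CPM in EV and 658 to 702 in N2NL. All 16 mesenchyme genes were tested too, with a median of 0.05 and sums of 559.6 to 597 CPM in EV and 572 to 631 in N2NL, led by Col3a1 at 210 ± 6.07 and 219.8 ± 9.20 CPM. Sox10 had 220, 276 and 342 counts in the mouse EV pools and 170, 140 and 181 in N2NL. Its groups did not overlap, and the difference did not pass (-0.60 ± 0.16, adjusted p = 0.342). Between EV pools the SD of log2(CPM + 0.5) was 0.32 for Foxd3, the widest of the members, and 0.05 for Prrx1, against a median of 0.12 over tested genes.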

How the data were processed

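Gene-level read counts of 6 human and 6 mouse organoid libraries were analysed. The authors deposited a raw count table per species and tables of their own DESeq2 comparison. Per the file headers these hold normalized values, treated here as a score, and p-values, and in human also a log2 fold change. Per the submitters' processing notes the tools included STAR 2.4.0, HTSeq 0.6.1p1, DESeq2 2.11.39, Trimmomatic 0.36 and Bowtie2 2.3.3.1, with no role or strand setting stated. In human, replicates 1 and 3 are exchanged between the deposited normalized and raw columns of each group; replicate numbers here are those of the raw columns.

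The species were fitted separately in edgeR 4.0.16 under R 4.3.3 (filterByExpr, TMM scaling, robust quasi-likelihood F test, group as the only term), called at a Benjamini-Hochberg adjusted p under 0.05 over all tested genes. The SE is the log2 fold change divided by the square root of F. Symbols came from the authors' table, and coordinates and exon lengths from GENCODE 29. The test was checked on simulated data. Alternatives were DESeq2 1.42.0, scaling by library size only, no filter, a replicate block and leaving out each library. Counter summary lines of the mouse table (among them 26.6% to 33.7% of reads aligned to several places) were left out of library sizes.

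The members and the 12 other gene lists (97 symbols) were chosen with earlier results of these data known. Genes named are every member, from each list those past the threshold and up to 4 of the most abundant, the 5 genes nearest in pattern to each called member, and genome neighbours; other genes are named as low or absent markers, or after their values were seen (SOX10, CSPG4, NGFR, MYH11, NKX2-2 and others given with counts or overlap). The values of some list genes are not reported here. An exact permutation test of 3 against 3 cannot give a two-sided p under 0.1 and was not used.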

Additional observations from a re-analysis of the deposited data

How the results depend on the processing

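Recomputed under the alternatives, 49 human member fold changes kept their direction and side of the threshold, 9 lost the call (PDGFRB and LUM without 1 library) and 2 gained it (PDGFRA). The count of called genes in human was 932, and 2155 with no filter on low counts and 224 to 1440 without 1 library (1440 without WT 1). With scaling by library size only, 454 rose and 455 fell, against 391 and 541. The count of called human members was 2, but 4 in DESeq2 (PDGFRA, PDGFRB, LUM and FOXD3), 3 with no filter, and 0 to 2 without 1 library: LUM and FOXD3 without WT 1, LUM without WT 2 or KO 3, and none without WT 3, KO 1 or KO 2. Without WT 1, FOXD3 entered the test only through WT 2 and WT 3, where it was high. The fits without 1 library also had fewer samples. The cause of the differences between settings was not tested.

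In mouse 2 genes were called, 30 in DESeq2, 117 with no filter, 21 with a replicate block and 0 to 17 without 1 library. No member was called in any of these fits. The log2 fold change of Pdgfra, 0.01, ran from -0.02 to 0.07 without 1 library, below 0 without EV 2 (-0.02) and without EV 3, N2NL 1 or N2NL 3 (-0.01 each).

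The main fits did not pair libraries by replicate number, and no label used here states a pairing. Correlations of the deviations of same-numbered libraries were 0.216, -0.113 and 0.126 in human and 0.143, 0.016 and -0.005 in mouse. Those of different-numbered libraries ran from -0.331 to 0.277 in human and from -0.11 to 0.111 in mouse. On the first mouse component, replicate 1 stood highest in both groups (EV 1 21.98, N2NL 1 19.08). A shared batch of same-numbered mouse pools was not tested. With a replicate block 899 genes and 2 members were called in human. At this depth the values of LUM, DCN, SNAI2 and TWIST1 rest on few counts, and small changes in them would not be seen.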
